A study of Mus musculus with 30 samples.

Results

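The libraries described here are those of wtSRCAP cells that kept an inducible wild-type SRCAP while the degron-tagged SRCAP was degraded. They were taken by their labels: 2 control and 2 IAA libraries of the wtSRCAP cell line, 4 of the 30 nuclear RNA-seq libraries of the series. SYAT cells are mouse embryonic stem cells of the CGR8 line in which both copies of Srcap carry a YPet-AID tag and which express the plant receptor OsTir1, so that indole-3-acetic acid (IAA) sends the tagged SRCAP to the proteasome. The wtSRCAP cell line was made from them by lentiviral transfer of a doxycycline-inducible (TRE3G) wild-type SRCAP fused to mCherry, which has no AID tag. The cdSRCAP cell line carries SRCAP with a mutated ATPase domain in the same design. Control cells received 1 µg/mL doxycycline for 24 h and auxinole, an inhibitor of OsTir1. IAA cells received the same doxycycline and 500 µM IAA for 4 h. All 4 groups therefore had doxycycline, the tagged Srcap alleles and OsTir1, and all were sorted for similar and high mCherry before nuclear RNA was extracted. Each of wtSRCAP and cdSRCAP is a single clone, so a property of the clone and of its transgene cannot be told apart. The comparison asks which transcripts still respond to IAA when wild-type SRCAP is supplied from the transgene. Set beside it are cdSRCAP cells (4 libraries), SYAT cells with no transgene after 4 h of IAA (4 libraries) and CGR8 cells, which lack the degron, after 4 h of IAA (4 libraries). The SYAT and CGR8 cells had no doxycycline, and sorting for mCherry is described for the transgene lines only. Comparisons with them therefore differ in more than the transgene or the degron.

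SRCAP is the ATPase of a chromatin remodelling complex that exchanges histone H2A for the variant H2A.Z in nucleosomes, mostly at promoters and enhancers. In embryonic stem cells H2A.Z marks both active promoters and the bivalent promoters of developmental genes. Nuclear RNA holds unspliced as well as spliced transcripts, so reads in introns report mainly on recent transcription and reads in exons also on older RNA.

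The wtSRCAP libraries held 2006573 to 3903305 intron counts and 12236493 to 26369773 exon counts. The lowest totals were both those of IAA replicate 1. That library stood apart in other ways as well. Mitochondrially encoded genes took 0.215% of its exon counts and 0.606% to 0.808% of those of the other 7 wtSRCAP and cdSRCAP libraries. A single gene without a matched symbol (ENSMUSG00000118642.1) took 23.9% of its exon counts, against 16.4% and 6.71% in the wtSRCAP controls and 5.99% in IAA replicate 2. The stem cell identity of the libraries was clear from 12 stem cell markers, none of them at 0. They summed to 5450 and 6150 CPM in control exons and to 6450 and 6590 after IAA. CPM are counts scaled to the library's exon total without ENSMUSG00000118642.1. Markers of other cell types were low but not level. The 8 fibroblast markers summed to 6.32 and 5.94 CPM in controls and 13.3 and 12.7 after IAA, with Twist2, Postn and Lum at 0 in all 4 libraries. Trophectoderm markers went from 11.5 and 8.83 to 27.0 and 11.2 (Tpbpa at 0 in all 4), primitive endoderm markers from 189 and 243 to 267 and 261, and neural markers from 129 and 132 to 192 and 138. The 2-cell-like markers stayed at or under 0.449. In bulk libraries, a change in the share of a cell type and a change of RNA per cell cannot be told apart.

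Srcap itself was counted in exons only. Its TMM-normalized exon counts (raw counts scaled for depth and composition) were 956 and 899 in controls and 1051 and 1080 after IAA. The IAA libraries lay slightly above the controls, and the log2 fold change of 0.20 ± 0.15 (SE, n = 2 per group) did not pass the test (adjusted p = 0.535, edgeR's quasi-likelihood test). IAA acts on the protein, so RNA does not measure the degradation. Reads of the transgene and of the tagged alleles cannot be told apart, because the transgene was cloned from mouse cDNA. The intron column of Srcap was 0 in all 8 wtSRCAP and cdSRCAP libraries. Scaled together with the SYAT libraries, Srcap exons gave 1019 and 938 counts in wtSRCAP controls and 1134 and 1163 with IAA. On the same scale SYAT cells without a transgene gave 754 and 862 in controls and 905 and 893 with IAA, and cdSRCAP cells gave 1142 to 1490. The lowest wtSRCAP value was thus above the highest value of these SYAT libraries, by a small margin and between separately prepared tables. Other SYAT libraries were not all lower. In CPM, Srcap exons had 46.1 and 65.5 in SYAT cells after 8 h of IAA and 53.8 to 64.3 in the wtSRCAP libraries.

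With wtSRCAP expressed, IAA was still followed by changes in both read classes. Genes were called at an absolute log2 fold change above 0.5 and a Benjamini-Hochberg adjusted p below 0.05, in an edgeR fit over the 8 wtSRCAP and cdSRCAP libraries with the replicate number as a block. In introns 173 of 12702 genes were lower (1.36%) and 119 higher (0.937%), with median log2 fold changes of -0.99 and 0.93. In exons 280 of 19111 genes were lower (1.47%) and 332 higher (1.74%), with medians of -0.98 and 0.79. The median over all genes tested was 0.01 in introns and -0.04 in exons. These counts rest on the block: without it, introns gave 30 lower and 8 higher genes, and exons gave 1 lower gene (Chac1) and 0 higher, with 1415 exon genes at an unadjusted p below 0.05. The counts also moved by over 1.5 times when single libraries were left out. Without control replicate 1 introns gave 26 lower and 9 higher genes and exons 26 and 40, without control replicate 2 introns gave 32 and 20 and exons 79 and 119, and without IAA replicate 2 introns gave 385 and 349 and exons 1421 and 1494. Without IAA replicate 1, the library that stood apart, introns gave 108 and 51 and exons 194 and 274. The labels do not say what a replicate number shares. All called exon genes and all intron genes called lower had the same sign in both replicate pairs, as did 116 of the 119 intron genes called higher. The block favours genes whose pairs agree, so this agreement follows in part from the calling and is not separate support.

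**Figure D1:**
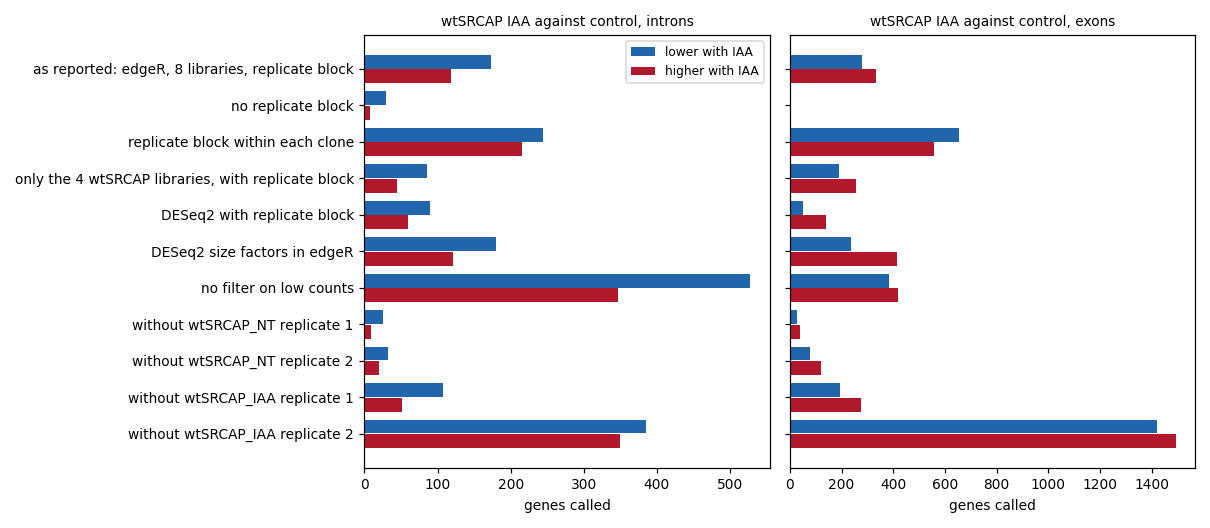
Number of genes called lower (blue) or higher (red) with IAA in wtSRCAP cells, for introns (left) and exons (right), under each way of fitting. The top bars (173 and 119 in introns, 280 and 332 in exons) are the reported counts; the exon bars without a replicate block hold 1 and 0 genes, and those without IAA replicate 2 are the longest.

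Inhbb, Lefty2, Lefty1 and Bmp4 were among the 15 genes higher in exons with the smallest p, the first 3 of them at its head. Inhbb, which encodes the subunit of activin B, had 421 and 265 normalized exon counts in controls and 1813 and 831 after IAA. The groups did not overlap, and the log2 fold change was 1.89 ± 0.17 (adjusted p = 5.42e-07). Lefty2, an inhibitor of Nodal signalling, had 373 and 292 counts in controls and 1628 and 992 after IAA, a log2 fold change of 1.96 ± 0.23 (adjusted p = 4.00e-05). Its neighbour on chromosome 1, Lefty1 (GRCm38, 180935022 to 180938400, plus strand), went from 337 and 297 to 983 and 795 counts, by 1.48 ± 0.20 (adjusted p = 3.23e-04). Bmp4, a ligand that drives mesoderm formation, went from 505 and 287 to 1320 and 710 counts, by 1.35 ± 0.19 (adjusted p = 4.90e-04). In each of these genes every IAA library lay above both controls, and the calls held in exons without any one of the 4 wtSRCAP libraries. In CGR8 cells without the degron, IAA also raised Lefty2 (log2 fold change 1.21, adjusted p = 3.27e-04) and Lefty1 (0.80, adjusted p = 0.00937), whereas the values for Inhbb (0.29, adjusted p = 0.247) and Bmp4 (0.43, adjusted p = 0.0612) did not pass the test there.

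Among 23 regulators of mesoderm and endoderm, 18 were tested in exons, 4 of them rose (Lefty2, Lefty1, Bmp4 and Eomes) and none fell, with a median of 0.80 and 2 members below 0. Eomes, a T-box factor of mesendoderm, was low throughout, at 85.7 and 54.3 counts in controls and 201 and 115 after IAA (log2 fold change 1.16 ± 0.32, adjusted p = 0.0430). Its call was lost without control replicate 1, control replicate 2 or IAA replicate 1, with a log2 fold change between 0.84 and 1.495 over all fits that left out a library. In introns 10 of the 23 were tested and none was called, with a median of 0.11. Without IAA replicate 1 the median was 0.42 in introns and 0.70 in exons, with 6 exon members below 0. The median in CGR8 exons was 0.06, against 0.67 in SYAT cells at 4 h. The trophectoderm, primitive endoderm and neural markers given above had exon medians of 1.008, 0.461 and 0.325. Without IAA replicate 1 these were 0.172, 0.345 and 0.162. The trophectoderm sums overlapped, with IAA replicate 2 (11.2) below control replicate 1 (11.5). In introns the primitive endoderm median was -0.104, and 0.285 without IAA replicate 1. Pax6 was called in exons (log2 fold change 0.84 ± 0.22, adjusted p = 0.0357), and the stromal marker Thy1 as well (1.57 ± 0.37, adjusted p = 0.0214). The call of Pax6 was lost without either control, and that of Thy1 without control replicate 1. The part of these markers in the result was not tested.

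Erf, Notch4 and Aqp3 were also among these 15 genes. Erf, a repressor of the ETS family that ERK inactivates, went from 1903 and 1706 to 4407 and 3199 counts (1.06 ± 0.14, adjusted p = 3.43e-04). Notch4, a Notch receptor, went from 214 and 135 to 823 and 309 (1.59 ± 0.22, adjusted p = 3.75e-04). Aqp3, a water and glycerol channel, went from 123 and 67.6 to 477 and 219 (1.83 ± 0.26, adjusted p = 4.21e-04). For these 3 genes the IAA values of replicate 1 were higher than those of replicate 2, yet both pairs moved upward. Ppp1r9b, Kifc3, Obsl1, Nptx2, Nectin1, Rcor2 and Pqlc1 completed the 15, with log2 fold changes between 0.92 and 1.59.

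**Figure D2:**
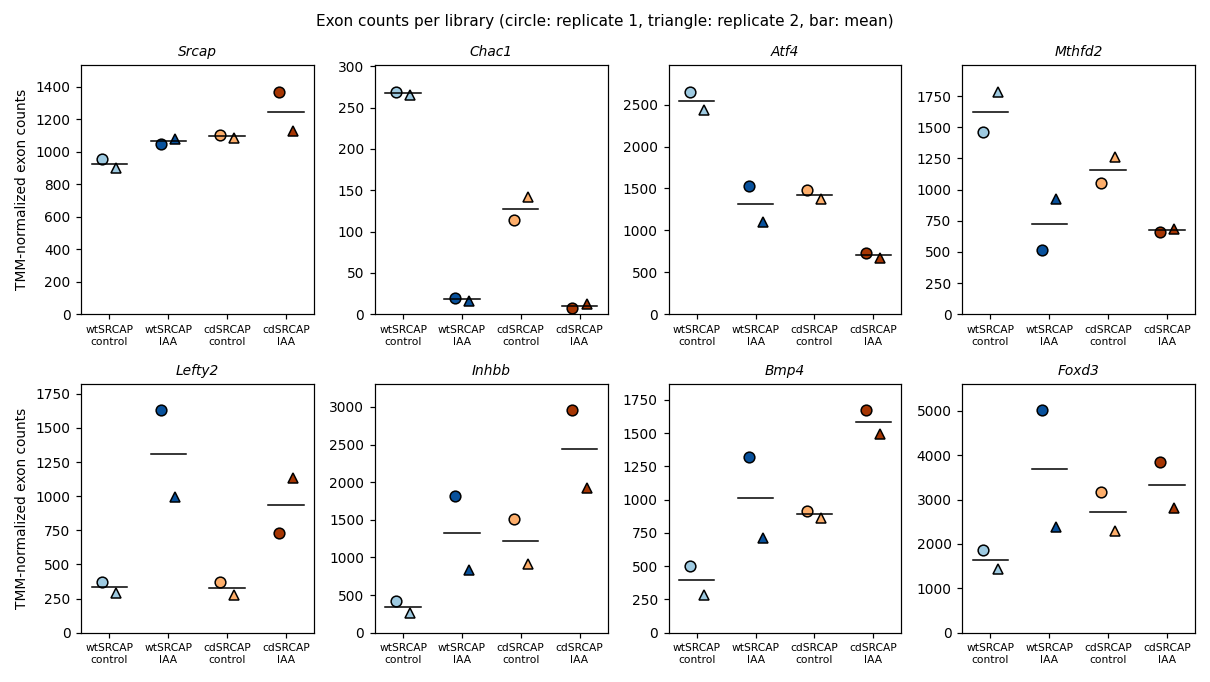
TMM-normalized exon counts (vertical axes, from 0) of 8 genes in the control and IAA libraries of wtSRCAP (blue) and cdSRCAP (orange) cells, with circles for replicate 1, triangles for replicate 2 and bars for the mean of 2. Srcap differed little (899 to 1080 in wtSRCAP), Chac1 fell to 19.7 and 16.5 counts with IAA in wtSRCAP cells, and Lefty2, Inhbb, Bmp4 and Foxd3 lay higher with IAA.

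Naive pluripotency factors had positive fold changes in exons. Of 16 naive pluripotency factors, all tested in exons, 4 rose and none fell, and the median was 0.29 with no member below 0 (-0.04 over all genes). Tbx3, a T-box factor of the naive network, went from 337 and 171 to 617 and 391 counts (1.01 ± 0.20, adjusted p = 0.00569). Prdm14, Nr0b1 and Klf5 rose by 0.94 ± 0.26, 0.68 ± 0.17 and 0.55 ± 0.15 (adjusted p = 0.0459, 0.0280 and 0.0448). Tbx3 lost its call without control replicate 2. Prdm14 lost it without control replicate 2 or IAA replicate 1, and Nr0b1 and Klf5 lost it without either control or IAA replicate 1, where the log2 fold changes over all such fits reached down to 0.52, 0.36 and 0.29. In introns none of 14 tested factors was called (median 0.34, and 0.21 without IAA replicate 1).

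Of 12 formative and primed pluripotency genes, Foxd3 and Sox4 rose in exons and none fell (median 0.52, 1 member below 0). In CGR8 exons 3 members were called higher (median 0.10, 5 below 0). Over all exon genes 1.74% were called higher in wtSRCAP and 1.58% in CGR8. Foxd3, a forkhead repressor that acts on leaving the naive state, went from 1855 and 1434 to 5012 and 2377 counts in wtSRCAP (1.096 ± 0.16, adjusted p = 6.48e-04). The pairs differed, with log2 ratios of 1.43 in replicate 1 and 0.73 in replicate 2, and both controls lay below both IAA libraries. Sox4 went from 2823 and 2854 to 5524 and 3299 counts (0.59 ± 0.16, adjusted p = 0.0352) and lost its call without control replicate 1 or IAA replicate 1, with values down to 0.34. In introns Lef1, a transcription factor of Wnt signalling, rose from 527 and 567 to 1207 and 1132 counts (1.09 ± 0.18, adjusted p = 0.0143), a call lost without control replicate 1 (values over such fits 0.83 to 1.39). Dnmt3b, a de novo DNA methyltransferase, was listed at 0 intron counts in both IAA libraries and at 431 and 232 in the controls, while its exon counts were 7449 and 12310 in controls and 8804 and 13160 after IAA.

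The Dnmt3b pattern was one of several in the intron columns. Of the 12702 genes tested, 90 had a 0 in at least 1 of the 8 libraries beside 100 or more normalized counts in another, and 7 of these 90 were called. Ttc27 was another, with 290 and 254 intron counts in controls and 0 in both IAA libraries, at least 61.4-fold lower against a floor of 3 counts per library, where Dnmt3b was at least 74.9-fold lower. Its exon counts showed no such drop (881 and 1158 in controls, 857 and 1178 after IAA). Taking a floor of 20 exon counts per library, 11097 multi-exon genes were expressed, of which 1219 had no intron count in any of the 8 libraries and 721 were at 0 in some but not all wtSRCAP libraries. None of 990 single-exon genes above that floor had an intron count. A fit restricted to genes counted in every library, which was added once the zeros had been noticed, called 319 lower and 234 higher in introns.

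Genes lower in introns were long and well counted by their medians. The 173 genes lower in introns had a median length of 166906 bp and the 119 higher ones 98712 bp, against 31395 bp over all genes tested. Their median level in the controls was 568 and 302 intron counts, against 87.3 over all. Cep128, which encodes a protein of the mother centriole's appendages, had 1348 and 1200 intron counts in controls and 562 and 516 after IAA (-1.24 ± 0.11, adjusted p = 0.00146). Sdccag8, a centrosomal ciliopathy gene, went from 541 and 606 to 214 and 213 (-1.43 ± 0.15, adjusted p = 0.00254). Nme7, a γ-tubulin ring complex component, went from 1188 and 1193 to 448 and 559 (-1.24 ± 0.12, adjusted p = 0.00221). In these genes both IAA libraries lay below 0.5 times the lower control, and each call held without any one library. Antisense genes overlap the 3 loci, and the strand setting of the authors' counting is not given in the sources used here.

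Tbc1d32, a regulator of ciliary assembly, was also lower, with 374 and 392 intron counts in controls and 124 and 143 after IAA (-1.52 ± 0.17, adjusted p = 0.00339). Other long genes lower in introns had metabolic roles. Fars2, the mitochondrial phenylalanyl-tRNA synthetase, went from 2490 and 2181 to 1209 and 973 (-1.104 ± 0.095, adjusted p = 0.00146). Fto, an RNA demethylase, went from 5034 and 4733 to 3090 and 2254 (-0.89 ± 0.11, adjusted p = 0.00416). The IAA and control groups did not overlap in any of these genes, which were named for a small p in the same libraries.

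The BBSome and intraflagellar transport, which move cargo within cilia, were represented by 36 genes. Most of them had a negative fold change, and a minority was called. This list, like the other lists of genes grouped by function, was chosen with earlier results of these data known. Its direction is therefore not independent evidence. In introns 35 were tested, 2 fell (Bbs9 and Ift57), none rose, and the median was -0.65 with 31 members below 0. In exons all 36 were tested, 4 fell (Ift88, Kif3b, Bbs1 and Wdr19), none rose, and the median was -0.53 with 33 members below 0. Over all genes tested, 6281 of 12702 were below 0 in introns and 10161 of 19111 in exons. Called lower were 1.36% and 1.47% of all genes. The medians in cdSRCAP cells were -0.85 in introns and -0.49 in exons, with 10 and 3 members called lower. The SYAT exon median at 4 h was -0.37, with 1 member called lower. The medians in CGR8 cells were -0.02 in introns and -0.05 in exons, with 1 member called lower in exons. Bbs9, a BBSome subunit, had 704 and 884 intron counts in wtSRCAP controls and 428 and 402 after IAA (-0.94 ± 0.14, adjusted p = 0.00728). Ift88, a core transport subunit, had 174 and 215 exon counts in controls and 28.7 and 102 after IAA (-1.59 ± 0.33, adjusted p = 0.00934). Kif3b, the motor subunit of kinesin-2, went from 733 and 679 to 457 and 347 exon counts (-0.83 ± 0.18, adjusted p = 0.0108). All 6 wtSRCAP calls were lost when at least 1 control library was left out. Those of Ift57 and Wdr19 were also lost without IAA replicate 1. Over those fits the log2 fold changes stayed negative, between -1.08 and -0.80 for Bbs9, -2.57 and -1.05 for Ift88, and -0.92 and -0.68 for Kif3b. Without IAA replicate 1 the medians of the group were -0.57 in introns and -0.36 in exons.

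The 15 genes higher in introns with the smallest p included Zfp423, Epas1 and Gli2. Zfp423, a zinc finger factor that binds SMAD and EBF proteins, had 3762 and 4301 intron counts in controls and 10600 and 8542 after IAA (1.24 ± 0.12, adjusted p = 0.00178). Its exon counts rose as well, from 1563 and 2208 to 3199 and 3864 (0.91 ± 0.17, adjusted p = 0.00405). Epas1, a hypoxia-inducible factor, went from 555 and 584 to 1122 and 1173 intron counts (1.01 ± 0.10, adjusted p = 0.00209). Gli2, a transcription factor of Hedgehog signalling, went from 2096 and 2510 to 4799 and 4118 (0.94 ± 0.13, adjusted p = 0.00455). Control and IAA values were separate in all 3 genes. The intron calls held without any one library, while the exon call of Zfp423 was lost without control replicate 1 (values over such fits 0.65 to 1.21). Epb41l1, Igsf21, Basp1, Pqlc1, Soga3, Sertad2, Ak4, Itpk1, Tns1, Zbtb7c, Crtac1 and Kif26b completed the 15 with the smallest p, with log2 fold changes between 0.87 and 1.68.

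**Figure D3:**
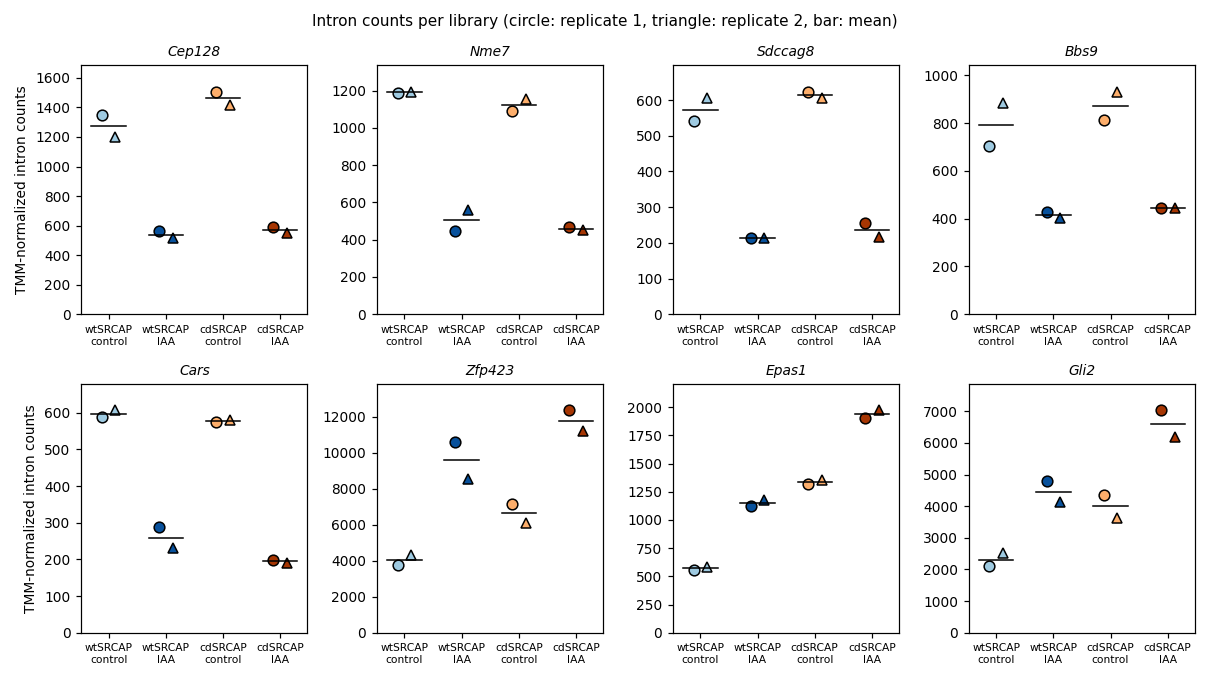
TMM-normalized intron counts (vertical axes, from 0) of 8 genes in the control and IAA libraries of wtSRCAP (blue) and cdSRCAP (orange) cells, with circles for replicate 1, triangles for replicate 2 and bars for the mean of 2. Cep128, Nme7, Sdccag8, Bbs9 and Cars lay lower with IAA in both clones, and Zfp423, Epas1 and Gli2 higher, with wtSRCAP values of Zfp423 between 3762 and 10600.

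Intron and exon calls moved the same way. Of the 173 genes lower in introns, 169 were tested in exons, 24 were called lower there too and 153 had a negative exon fold change (median -0.57). Of the 119 higher in introns, 117 were tested in exons, 42 were called higher there and 106 had a positive fold change (median 0.55). No gene was called in opposite directions. Both columns come from the same libraries, so they do not count as separate replicates.

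ATF4 is the transcription factor of the integrated stress response, which raises amino acid synthesis, transport and tRNA charging when amino acids are short. Of 28 response genes, 22 were tested in introns, 4 fell (Cars, Asns, Psat1 and Aars) and none rose, and all 22 had negative fold changes with a median of -0.79. In exons 27 were tested, 4 fell (Chac1, Mthfd2, Atf4 and Slc1a4) and none rose, with a median of -0.16 and 19 members below 0 (17 with DESeq2's size factors, and a median of -0.23 without IAA replicate 1). The promoters of the 4 called genes that held a composite C/EBP-ATF type motif are printed here. Chac1 and Slc1a4 were called in exons, and Asns and Aars in introns. They were picked by the motif, and the promoters of Mthfd2, Atf4 and Psat1, which lacked it, are not printed. The printed promoters span 250 bases before to 50 bases after the start in RefSeq (GRCm38.p6). They read 5′ to 3′ on the strand of the gene, with the bases that match TGATGNAA on either strand in capitals.
Chac1, chr2:119350992-119351291, plus strand: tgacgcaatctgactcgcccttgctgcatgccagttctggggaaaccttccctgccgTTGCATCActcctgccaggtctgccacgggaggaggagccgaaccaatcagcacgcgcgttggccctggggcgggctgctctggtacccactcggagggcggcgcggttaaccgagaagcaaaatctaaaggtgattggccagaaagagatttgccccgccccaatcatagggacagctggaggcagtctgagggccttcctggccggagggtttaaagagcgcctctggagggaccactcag
Asns, chr6:7693160-7693459, minus strand: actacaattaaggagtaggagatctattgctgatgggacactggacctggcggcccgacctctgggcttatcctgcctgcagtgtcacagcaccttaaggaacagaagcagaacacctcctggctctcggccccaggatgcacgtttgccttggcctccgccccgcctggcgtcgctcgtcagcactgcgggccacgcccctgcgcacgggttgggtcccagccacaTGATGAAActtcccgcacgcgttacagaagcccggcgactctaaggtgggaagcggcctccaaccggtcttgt
Aars, chr8:111033592-111033891, plus strand: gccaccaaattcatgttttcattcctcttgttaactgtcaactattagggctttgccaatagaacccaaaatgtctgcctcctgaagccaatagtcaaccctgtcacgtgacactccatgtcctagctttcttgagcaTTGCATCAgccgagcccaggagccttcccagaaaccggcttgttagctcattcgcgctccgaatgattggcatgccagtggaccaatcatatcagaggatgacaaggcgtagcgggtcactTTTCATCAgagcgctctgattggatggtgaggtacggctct
Slc1a4, chr11:20332664-20332963, minus strand: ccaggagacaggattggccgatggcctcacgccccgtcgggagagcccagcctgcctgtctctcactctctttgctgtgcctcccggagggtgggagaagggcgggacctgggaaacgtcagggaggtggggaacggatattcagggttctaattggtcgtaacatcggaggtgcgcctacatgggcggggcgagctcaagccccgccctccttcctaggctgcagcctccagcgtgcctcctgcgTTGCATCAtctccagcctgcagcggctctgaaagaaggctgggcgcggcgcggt

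The motif was searched as TGATGNAA on both strands, and the 2 matches in Aars do not overlap. It occurred in the promoters of 4 of the 7 called genes that had an entry (Cars had none) and not in those of Mthfd2, Atf4 and Psat1, and in 10 of 23 genes of the whole list that had one. It occurred in 1304 of all 32851 promoters given (3.97%). A match of letters does not show binding.

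Chac1, which degrades glutathione and is a sensitive ATF4 target, had the steepest fall among called exon genes counted in every wtSRCAP library. It had 269 and 265 exon counts in controls and 19.7 and 16.5 after IAA, a log2 fold change of -3.93 ± 0.36 (adjusted p = 7.14e-07), and it was the exon gene still called without the block. Mthfd2, a mitochondrial enzyme of folate metabolism, went from 1464 and 1783 to 518 and 927 (-1.19 ± 0.17, adjusted p = 6.48e-04). Atf4 itself went from 2651 and 2438 to 1529 and 1097 (-0.97 ± 0.15, adjusted p = 0.00120). These 3 calls held without any one library, and in all 3 genes each IAA value lay below both controls. Slc1a4, a transporter of neutral amino acids, went from 742 and 508 to 382 and 272 exon counts (-0.93 ± 0.19, adjusted p = 0.00891), a call lost without control replicate 1 (values over such fits -1.08 to -0.78).

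In introns, Cars, the cysteinyl-tRNA synthetase, went from 588 and 607 to 287 and 230 counts (-1.22 ± 0.15, adjusted p = 0.00416), a call lost without control replicate 2 (values over such fits -1.38 to -1.06). Asns, the asparagine synthetase, went from 453 and 335 to 269 and 183 (-0.82 ± 0.15, adjusted p = 0.0257). Aars, the alanyl-tRNA synthetase, went from 385 and 450 to 226 and 269 (-0.76 ± 0.16, adjusted p = 0.0370). The calls of Asns and Aars were lost whichever library was left out, with values between -0.88 and -0.75 for Asns and between -0.80 and -0.72 for Aars. Psat1, an enzyme of serine synthesis, fell by 0.92 ± 0.19 on the log2 scale (adjusted p = 0.0340) and lost its call in 3 of the 4 fits, with values from -1.22 to -0.64.

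IAA without a degron moved the same group. In CGR8 cells 10 of the list's members tested in exons were called lower, beside 0.889% of all genes, and the median was -0.43. In CGR8 introns 2 were called lower and none higher, beside 0.161% and 0.066% of all genes, with a median of -0.66. Chac1 had an exon log2 fold change of -3.07 in CGR8 cells (adjusted p = 5.02e-05), Atf4 of -1.53 (adjusted p = 1.89e-05) and Slc1a4 of -1.81 (adjusted p = 1.80e-05). In SYAT cells at 4 h the exon median was -0.16. The wtSRCAP and CGR8 comparisons share no library, and the difference between their responses was not tested.

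Of 18 genes of cholesterol and fatty acid synthesis, 3 fell in wtSRCAP exons and none rose (median -0.29, 14 below 0; -0.17 without IAA replicate 1), and in CGR8 exons 6 fell (median -0.41). Scd2, a fatty acid desaturase, went from 15720 and 16120 to 8894 and 11220 counts (-0.67 ± 0.14, adjusted p = 0.00703). Dhcr7 and Hmgcs1, of the sterol pathway, had values of -0.99 ± 0.21 and -0.56 ± 0.15 (adjusted p = 0.00992 and 0.0417). Hmgcs1 had 1453 and 2749 counts in controls and 848 and 2116 after IAA, so its groups overlapped although both pairs fell. The call of Scd2 was lost without control replicate 1, that of Dhcr7 without control replicate 1 or IAA replicate 1, and that of Hmgcs1 without either control or IAA replicate 1, with values of Hmgcs1 up to -0.34. In introns none of 14 tested members was called (median -0.26).

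Immediate early genes respond to growth signals and to handling. Of 22 members tested in exons 5 rose and none fell (median 0.41, 1 below 0), and the CGR8 median was -0.08. Fosl2, an AP-1 subunit, went from 186 and 104 to 479 and 247 counts (1.31 ± 0.24, adjusted p = 0.00472). Jund, another AP-1 subunit, went from 1239 and 954 to 3312 and 1314 (0.98 ± 0.20, adjusted p = 0.00695), with IAA replicate 2 only slightly above control replicate 1. Dusp1, Ier5 and Ier2 rose by 0.78 ± 0.20, 0.80 ± 0.21 and 0.60 ± 0.16 (adjusted p = 0.0335, 0.0380 and 0.0441). Without IAA replicate 1 the calls of Jund, Dusp1, Ier5 and Ier2 were lost, and without control replicate 2 those of Fosl2, Dusp1, Ier5 and Ier2. Their lowest values over such fits were 1.18 for Fosl2, 0.46 for Jund, 0.50 for Dusp1, 0.54 for Ier5 and 0.24 for Ier2. Control replicate 1 also decided Jund, Ier5 and Ier2. In introns none of 11 tested members was called.

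Herpud1, Sel1l and Hspa13 were among the 15 lower in exons with the smallest p. Herpud1, which serves the degradation of misfolded proteins of the endoplasmic reticulum, went from 454 and 538 to 84.3 and 225 counts (-1.71 ± 0.28, adjusted p = 0.00228), and it also fell in CGR8 cells (-1.07, adjusted p = 7.78e-04). Sel1l, the adaptor of the Hrd1 ubiquitin ligase, went from 1462 and 1562 to 816 and 839 (-0.87 ± 0.16, adjusted p = 0.00360), and its CGR8 value of -0.28 did not pass the test (adjusted p = 0.226). Hspa13, an Hsp70-family protein, went from 496 and 632 to 178 and 331 (-1.17 ± 0.21, adjusted p = 0.00322). All 3 genes had separate groups and kept their call without any one library. Spata7, a gene of the photoreceptor connecting cilium, went from 157 and 160 to 21.5 and 32.4 counts (-2.49 ± 0.35, adjusted p = 4.67e-04). Cep162, of the ciliary transition zone, went from 436 and 297 to 142 and 142 (-1.32 ± 0.23, adjusted p = 0.00316), a call lost without control replicate 1 (values over such fits -1.54 to -1.09). Snx19, Alkbh8, Fam120b, Gosr1, Usp30, Wdr7 and Hdx completed the 15, with log2 fold changes between -1.71 and -1.04.

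The remaining lists held few or no calls. Among 10 subunits of the SRCAP complex only Dmap1 was called, lower in exons at 514 and 654 counts in controls and 344 and 362 after IAA (-0.72 ± 0.19, adjusted p = 0.0353), and this call was lost without either control or IAA replicate 2 (values over such fits -0.80 to -0.58). None of the 14 genes of H2A.Z and of other H2A.Z exchange factors was called in exons or in the 12 tested in introns. None of 10 FGF and ERK feedback genes was called in either column, with an exon median of 0.39. The aryl hydrocarbon receptor pathway (10 tested in exons, median -0.15) and the heat shock genes (13 tested, median 0.11) had no call either. Without IAA replicate 1 these medians were 0.01, with 4 rather than 8 members of the receptor pathway below 0, and 0.19. Of 15 p53 targets only Gdf15, a stress cytokine, was called, at 77.4 and 45.1 exon counts in controls and 12.6 and 15.8 after IAA (-1.99 ± 0.53, adjusted p = 0.0386). Gdf15 also fell in CGR8 cells (-1.35, adjusted p = 0.0308) and lost its call in wtSRCAP without either control or IAA replicate 1 (values over such fits -2.45 to -1.64). Of the cell fate regulators named for SYAT cells, 8 of 9 were tested in exons, Lefty2 and Bmp4 rose and no member lay below 0 (median 0.48). In CGR8 exons, without the degron, the median of these regulators was 0.43, with 2 called higher and 1 below 0. That list was chosen on SYAT libraries of the same series and its direction is not independent evidence.

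**Figure D4:**
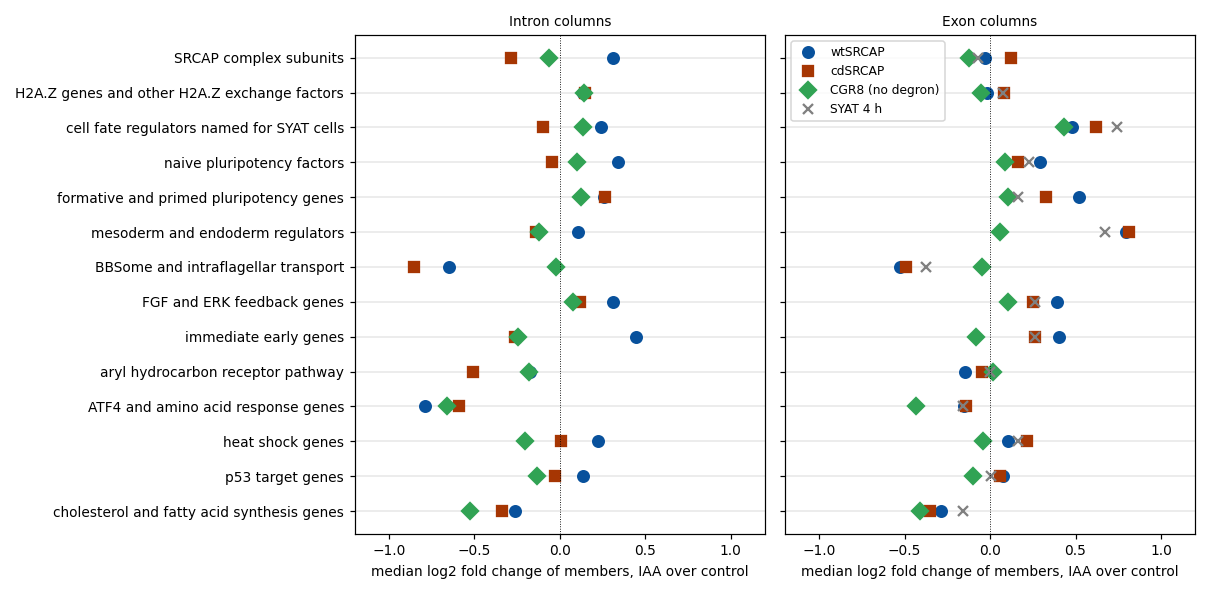
Median log2 fold change (IAA over control, horizontal axis) of the members tested in each of 14 gene lists, in introns (left) and exons (right), for wtSRCAP (circles), cdSRCAP (squares), CGR8 cells without the degron (diamonds) and, in exons, SYAT cells at 4 h (crosses). The BBSome and intraflagellar transport list lay at -0.65 and -0.53 in wtSRCAP and near 0 in CGR8, while the ATF4 list was also low in CGR8 introns (-0.66).

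The response was then set beside that of SYAT cells that had no transgene. At 4 h of IAA, 49 genes were called lower (0.255%) and 27 higher (0.141%) in SYAT exons, with medians of -1.01 and 0.99. In wtSRCAP cells the 49 genes had a median log2 fold change of -0.93, all 49 were below 0 and 31 were called lower. The 27 genes had a median of 0.99, all 27 were above 0 and 17 were called higher. The replicate pairs gave -0.83 and -0.97 for the first list and 1.03 and 0.95 for the second. The medians in cdSRCAP cells were -0.96 and 0.80, and in CGR8 cells -0.08 and 0.29. Read from the other side, 31 genes were 63.3% of the SYAT list and 11.1% of the wtSRCAP list of lower exon genes, and 17 genes were 63.0% and 5.12% of the higher ones. The libraries of the 2 comparisons are separate, and both cell lines carry the degron. Of these 2 lines, only the wtSRCAP cells had doxycycline.

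Zscan20, a zinc finger gene, went from 571 and 464 to 325 and 227 exon counts in wtSRCAP cells (-0.93 ± 0.20, adjusted p = 0.0112) and had -1.30 in SYAT. Adgre5, an adhesion receptor, went from 736 and 380 to 1221 and 1043 counts (1.08 ± 0.18, adjusted p = 0.00238) and had 1.09 in SYAT, but also 0.85 in CGR8 (adjusted p = 0.00314). Nrp2, a semaphorin coreceptor, went from 4963 and 2976 to 8126 and 5136 counts (0.75 ± 0.16, adjusted p = 0.0103) and had 0.90 in SYAT. These 3 calls were lost without control replicate 2, and that of Zscan20 also without control replicate 1, with values over such fits of -1.07 to -0.72 for Zscan20, 0.74 to 1.45 for Adgre5 and 0.53 to 0.99 for Nrp2. Inhbb was in the SYAT list as well, at 1.64, as were Usp30 (-1.08) and Sel1l (-0.88). Among the SYAT genes with the smallest p that did not pass in wtSRCAP, F2r had 0.51 ± 0.15 (adjusted p = 0.0707) and Phlda1 0.99 ± 0.31 (adjusted p = 0.0786).

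**Figure D5:**
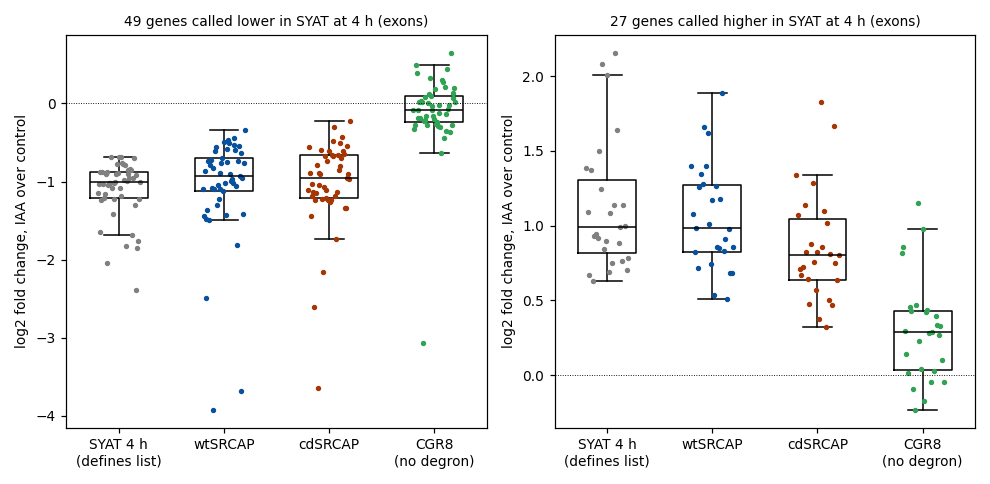
Log2 fold changes in exons (IAA over control, vertical axis) of the 49 genes called lower (left) and 27 called higher (right) in SYAT cells at 4 h, in SYAT itself (which defines the lists), wtSRCAP, cdSRCAP and CGR8 cells; each point is a gene, boxes span the quartiles with the median, and whiskers reach 1.5 times the interquartile range. The wtSRCAP medians (-0.93 and 0.99) lay beside those of SYAT (-1.01 and 0.99) and of cdSRCAP (-0.96 and 0.80), and the CGR8 medians at -0.08 and 0.29.

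The wtSRCAP response minus the SYAT response at 4 h was tested in a joint exon fit of 20061 genes. It called 0 genes lower and 4 higher (0.0199%), with 844 (4.21%) at an unadjusted p below 0.05, and without the block it called 0 and 0. The 4 genes were Lars2, CT010467.1, Gm15564 and Mir6236. CT010467.1, on the joint scale, had 207900 and 67410 counts in wtSRCAP controls, 333900 and 53920 with IAA, 288500 and 225200 in SYAT controls, and 99260 and 63430 in SYAT at 4 h. None of the 4 was called in either cell line alone, and the values of the wtSRCAP pairs went in opposite directions for CT010467.1, as did the share of ENSMUSG00000118642.1 given above. The part of that gene's share in the result was not tested. Chac1 was among the 5 genes with the smallest p for a more negative response in wtSRCAP, with a difference of -1.86 ± 0.48 (adjusted p = 0.957), and Foxd3 among the 5 for a more positive one, with 0.98 ± 0.21 (adjusted p = 0.587).

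Against cdSRCAP, tested as the difference of the responses in the same fit, 1 gene was lower and 1 higher in introns (0.00787% each), with 601 (4.73%) at an unadjusted p below 0.05, and 0 and 0 in exons (0.0% each), with 562 (2.94%). DESeq2 gave 4 and 2 in introns and 0 and 0 in exons. Both intron genes, Ttc27 and Cd81, had libraries at 0. Cd81 had intron counts in IAA replicate 1 only among the wtSRCAP libraries (161) and in control replicate 1 only among the cdSRCAP libraries (183). Without IAA replicate 2 of wtSRCAP the exon difference called 472 lower and 290 higher genes and the intron difference 26 and 17, a comparison in which wtSRCAP with IAA is represented by replicate 1 alone. Inhbb began at different levels in the 2 clones, with 1513 and 917 exon counts in cdSRCAP controls and 2954 and 1923 after IAA, and its responses differed by 0.87 ± 0.22 (adjusted p = 0.998). Foxd3 had 3164 and 2289 counts in cdSRCAP controls and 3845 and 2813 after IAA, a difference from wtSRCAP of 0.81 ± 0.22 (adjusted p = 0.998). The genes called in wtSRCAP had the same sign in cdSRCAP for 278 of 280 lower and 332 of 332 higher exon genes, with cdSRCAP medians of -0.76 and 0.49. They had cdSRCAP medians of -0.76 and 0.62 in introns. Of the 280 lower exon genes 101 were called in cdSRCAP, 36.1% of the wtSRCAP list and 41.2% of the cdSRCAP list. Of the 332 higher ones 64 were called, 19.3% and 64.0% of the lists. In introns 93 lower genes were shared, 53.8% and 42.1%, and 42 higher genes, 35.3% and 42.4%. Of the 119 genes higher in wtSRCAP introns, 4 were called lower in cdSRCAP introns, namely Cd81, Ppp4r3a and Rprd1b, each with libraries at 0, and Il31ra, with log2 fold changes of 1.22 and -1.197. cdSRCAP itself had 1.74% of genes lower and 0.779% higher in introns and 1.28% and 0.523% in exons.

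CGR8 cells gave the values of IAA without a degron. The 280 genes lower in wtSRCAP exons had a CGR8 median of 0.06, and 10 of them were called lower and 13 higher there, beside 0.889% and 1.58% of all genes. The 332 higher genes had a CGR8 median of 0.01, with 12 called higher and 9 lower. The intron lists had CGR8 medians of 0.01 and 0.08. Called in the same direction in CGR8 were thus 3.57% of the lower and 3.61% of the higher exon genes. Genes with a CGR8 value past the test included Chac1, Atf4, Slc1a4, Herpud1, Scd2, Lefty2 and Lefty1. The CGR8 fit had 1 residual degree of freedom, so a missing call there does not show a lack of response. The part of IAA itself in the wtSRCAP lists was not tested. Intron columns of the SYAT table were not set against those of wtSRCAP gene by gene, because 629 of 1213 single-exon genes (51.9%) had intron counts there and none of 990 did in the wtSRCAP table. In SYAT introns at 4 h, 0 genes were called lower (0.0%) and 1 higher (0.00679%). The 50 genes with the smallest p in each direction in SYAT introns had medians of -1.199 and 1.24 in SYAT, which defined them, -0.85 and 0.57 in wtSRCAP and -1.196 and 0.54 in cdSRCAP, with 46 and 45 of them tested and 4 and 10 called in wtSRCAP.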

How the data were processed

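Nuclear RNA-seq was deposited by the authors as whole-number counts per gene, without normalization, with separate columns for introns and exons. Per the paper's methods, reads were mapped to mm10 with STAR and counted with featureCounts on GENCODE exons and on gene bodies without exons. The labels also list SAMtools 1.10 and Picard. The deposited DESeq2 tables of the authors' comparisons (fold changes and p-values) were not used, nor was the table of sorted G1 cells.

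Groups and replicate numbers came from the labels. Of 55401 identifiers, 55141 matched GENCODE vM21 (GRCm38) without version, which gave symbols, positions and lengths. Counts were fitted with edgeR 4.0.16 in R 4.3.3 (glmQLFit and glmQLFTest, TMM, filterByExpr with minimum count 10 and total 15), over the 8 wtSRCAP and cdSRCAP libraries, with group and replicate number as terms and 3 residual degrees of freedom. SYAT (10 libraries) and CGR8 (4 libraries) tables were fitted alike, with 4 and 1 residual degrees of freedom. The joint fit nested the replicate in the table. Calls required an absolute log2 fold change above 0.5 and a Benjamini-Hochberg adjusted p below 0.05 over all genes tested. DESeq2 1.42.0 was an alternative. The test was checked on simulated counts with 200 changed genes. Every group there shared the same replicate effect, as the block assumes. That check therefore cannot show how the block acts on the real counts.

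Same-numbered libraries deviated together in exons (correlation of replicate differences across 12049 genes, 0.57 to 0.681 between groups) and less so in introns (0.088 to 0.517, 7809 genes). With 2 numbers and no label on what they mark, pairing is not established. The study calls replicates biological; where they share a culture, p-values measure only the spread between these libraries. The ± values are standard errors derived from the quasi-likelihood test and include its estimate of the spread between libraries. Floors (3 counts) cover counting error only.

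Named genes were Srcap, list members called (otherwise up to 4 with the smallest p), the 15 called per direction and column with the smallest p, 5 per direction in each difference of responses and 8 per direction from the SYAT lists. Members and lists were chosen with earlier results of these data known. Groups that do not overlap in genes named for a small p follow in part from that choice and are not separate support. Auxinole doses differ between labels and methods and are not given here.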

Additional observations from a re-analysis of the deposited data

Results flagged for a closer look

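Ttc27 and Cd81 had a difference between the wtSRCAP and cdSRCAP responses in introns that passed the test of the difference (adjusted p = 0.0354 for both). The difference on the log2 scale was -10.80 for Ttc27 and 18.61 for Cd81. Both sizes are set by libraries with 0 intron counts and depend on the prior count, so they are no bound on the fold. Leaving out control replicate 1 or IAA replicate 1 of wtSRCAP removed the call of Cd81 in wtSRCAP itself.

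In exons, 4 genes had a difference between the wtSRCAP and the SYAT 4 h response that passed the test. The difference was 2.67 for Lars2 (adjusted p = 0.00675), 1.89 for CT010467.1 (adjusted p = 0.00715), 3.32 for Gm15564 (adjusted p = 0.0140) and 2.96 for Mir6236 (adjusted p = 0.0259). Their wtSRCAP log2 fold changes were 0.55, 0.17, 1.24 and 0.86, and their SYAT values were -2.17, -1.64, -2.28 and -2.14, none of them called. No explanation was tested.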

How the results depend on the processing

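Counts of called genes moved with the way replicates were handled, while directions mostly held. Without the replicate block, introns gave 30 lower and 8 higher genes, exons 1 and 0, the difference from cdSRCAP 0 and 0 in introns, and the difference from SYAT 0 higher in exons; 85 of the named values were then no longer past the test and none changed sign. A replicate block within each clone gave 244 and 216 genes in introns and 655 and 557 in exons, with 2 and 3 genes in the intron difference from cdSRCAP and 4 and 2 in the exon one. With the 4 wtSRCAP libraries alone introns gave 85 and 45. DESeq2 with the block gave 89 and 60 in introns and 51 and 139 in exons, and 4 and 2 in the intron difference. Without a filter on low counts introns gave 528 and 347, the difference from cdSRCAP 52 and 32 in introns and 2 and 4 in exons, and the difference from SYAT 2 and 12. DESeq2's size factors in edgeR gave 236 lower and 413 higher exon genes and moved the median of all exon genes from -0.036 to 0.006. That scaling turned the exon medians of the SRCAP complex (-0.03 to 0.01) and of the H2A.Z list (-0.02 to 0.02) and of no other list of the report. Of 2 alternatives added after the data were seen, genes without a 0 gave 319 and 234 in introns and 0 and 0 in the difference from cdSRCAP, and leaving out the 3 most counted exon genes and the mitochondrial genes gave 276 and 396 in exons. Lists called at 6 h in SYAT gave exon medians of -0.747 and 0.673 in wtSRCAP, against -0.916 and 0.885 in SYAT, with 154 of 496 and 128 of 324 called in wtSRCAP.

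Leaving out 1 wtSRCAP library gave 26 to 385 lower and 9 to 349 higher genes in introns, and 26 to 1421 and 40 to 1494 in exons. For the difference from cdSRCAP it gave 0 to 26 and 0 to 17 in introns and 0 to 472 and 0 to 290 in exons, the highest always without IAA replicate 2. The SYAT-list medians ranged from 0.559 to 0.79 for the higher intron list and from 0.957 to 1.097 for the higher exon list. Among called named genes, 20 of 46 in introns and 21 of 61 in exons kept their call in all 4 fits. Named genes that changed sign were, apart from Rprd1b, not called. Rprd1b, an intron gene with libraries at 0, ranged from -0.063 to 9.247. In introns the lowest and highest values were -0.726 and 0.285 for Lama1, -1.997 and 1.266 for Gata4, -0.159 and 0.306 for Ccnl2, -0.047 and 1.003 for Dab2, -0.013 and 1.486 for Cep295, -0.105 and 0.697 for Ruvbl2, and -0.028 and 0.31 for Meis2. In exons they were -0.792 and 0.298 for Halr1, -0.243 and 0.587 for CT010467.1, -0.023 and 1.193 for Ascl2, -0.128 and 1.127 for Lars2, -0.687 and 0.07 for Hspa8, -0.086 and 1.517 for Mir6236, -3.082 and 2.967 for Pdgfra, and -0.17 and 0.672 for Neurod1. The cause was not tested. With 2 libraries per group, a single library sets much of the spread.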
